A study of Homo sapiens with 6 samples.

Results

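The genes described here encode parts of the urokinase plasminogen system and several serpins grouped with it. They are the 8 rows of the deposited expression table named PLAU, PLAUR, PLAT, SERPINE2, SERPINB2, SERPINB7, ANXA2 and S100A10, chosen by gene symbol out of 20061 rows. Transcripts were measured by sequencing of polyadenylated RNA from HEYA8, an established human ovarian cancer cell line labelled as low grade serous carcinoma. All cells had a lentiviral insert that stably expresses a short hairpin RNA, and were grown in puromycin. The 3 shLuciferase samples expressed a hairpin against luciferase, which human cells do not have, and are the negative control; the 3 shETS1 samples expressed a hairpin that targets ETS1, the founding member of the ETS transcription factors. The labels name no other treatment. Whether clones or pools were used, and whether replicates came from separate cultures, is not given in them, so the p-values below may measure technical spread alone. Levels are in FPKM (fragments per kilobase of transcript, scaled to library depth). The table holds 1 value for each gene in each group, so single samples are not shown and no spread within a group could be computed. In bulk RNA, fewer cells with a transcript and less transcript per cell cannot be told apart.

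Urokinase (PLAU) and tissue plasminogen activator (PLAT) are serine proteases that cut plasminogen, an inactive precursor, into plasmin, which digests fibrin and other matrix proteins and activates further proteases and growth factors. The urokinase receptor (PLAUR) holds urokinase on the cell surface, and the complex of annexin A2 (ANXA2) with S100A10 is known to bind plasminogen and tissue plasminogen activator there. Serpins are inhibitors that trap a protease by a change of shape. In carcinomas, urokinase and its receptor are widely studied for their part in invasion, and PLAU is often described as a target of ETS factors.

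All 8 genes had been tested by the authors, and SERPINB7 was the 1 gene that passed a q-value (a p-value adjusted for all tested genes) of 0.05 in the authors' deposited table, higher in shETS1. No gene of the 8 was called lower. Of all 11952 tested rows, 0.812% were called, 0.544% higher and 0.268% lower, and a count of 1 in so short a list says nothing about the list. At an unadjusted p under 0.05 there were 3 of the 8 genes (PLAU, SERPINB2 and SERPINB7), all higher, where 6.94% of all tested rows lay under that p, 3.90% higher and 3.04% lower. The median log2 fold change of the 8 genes was 0.30, against 0.02 for all tested rows. Without the barely expressed SERPINB2, over the 7 genes with a mean of at least 1 FPKM, it was 0.18. Of the 8, 7 had a value above 0 and S100A10 was below 0, while 53.1% of all tested rows were above 0. The 8 genes were chosen with earlier results of these data known, so these contrasts cannot tell whether the system as a whole shifted. ETS1 itself stood at 41.4 FPKM in shLuciferase against 17.9 FPKM in shETS1, and the authors' deposited table lists q = 0.00964.

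**Figure D1:**
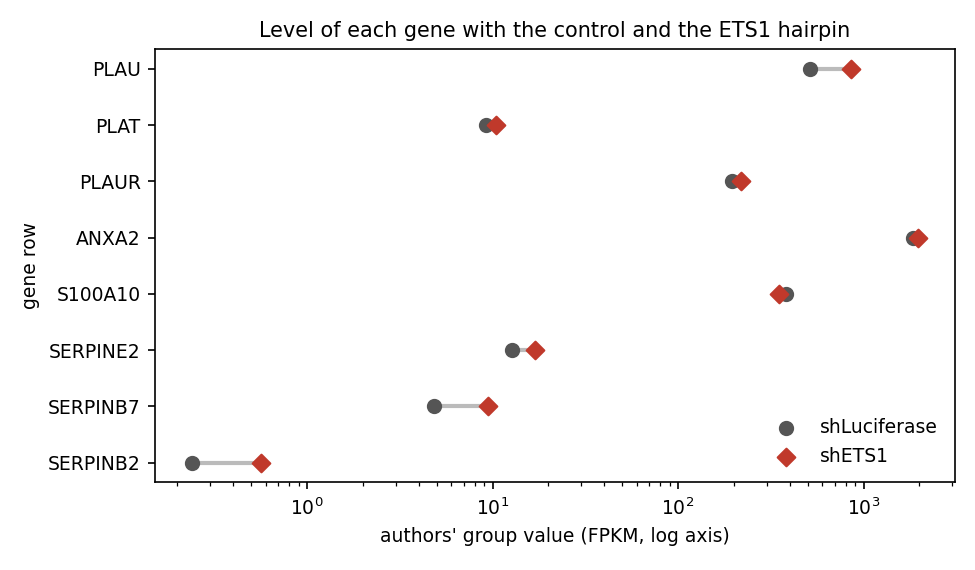
Level of each of the 8 gene rows (vertical axis) in FPKM on a log axis (horizontal), as the authors' value for the shLuciferase group (grey circles) and the shETS1 group (red diamonds), joined by a line. The table gives no error for these values. The rows run from ANXA2 at 1844 and 1976 FPKM down to SERPINB2 at 0.239 and 0.568 FPKM, and the gap between the symbols is widest for SERPINB2, SERPINB7 and PLAU.

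The highest of the 8 control levels was 7725-fold above the lowest. In the control, the ANXA2 row stood highest, followed by PLAU, S100A10 and PLAUR, all of them above 100 FPKM in both groups. SERPINE2, PLAT and SERPINB7 lay far lower, and SERPINB2 was below 1 FPKM. The order was the same in shETS1. FPKM is scaled to transcript length, so levels of different genes are set side by side here, but only as a rough guide. The deposited loci of PLAU and SERPINB2 are shared with other genes. Such a comparison is least sure for the ANXA2 row, since the transcript length used to scale it is not known. The 7725-fold range rests on that row. No spread is given by which to say whether neighbours in the order, such as SERPINE2 and PLAT, differ.

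Of the 2 plasminogen activators, urokinase was by far the more abundant. PLAU (locus chromosome 10, 75669727 to 75682535, hg19) was at 514 FPKM in shLuciferase against 854 FPKM in shETS1, a difference of 339 FPKM or 1.66-fold. The log2 fold change was 0.73, and the authors' deposited table lists p = 0.00835 and q = 0.303, so PLAU was not called. The control level was matched or exceeded by only 191 tested rows, PLAU itself included. Among the 187 other tested rows whose mean level lay within 2-fold of that of PLAU, 186 had a lower log2 fold change, and none of the 187 was called. Over the 989 tested rows with a mean of at least 100 FPKM, PLAU ranked 8 from the top by fold change, and 4 of those rows were called. The smallest change called anywhere in the table was 1.83-fold, which is larger than that of PLAU.

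C10orf55 has the same deposited locus as PLAU. It was at 2.83 FPKM in shLuciferase against 3.24 FPKM in shETS1, so the level of PLAU was far above that of the row it shares its locus with. No strand-marking step is described, so it is not known whether reads from opposite strands of this locus could be told apart. PLAT was at 9.21 FPKM in shLuciferase against 10.4 FPKM in shETS1, a log2 fold change of 0.18, and the authors' deposited table lists q = 1.00. Urokinase thus stood 55.9-fold above tissue plasminogen activator in the control and 81.7-fold above it in shETS1, on the FPKM scale. Whether the fold changes of the 2 activators differ was not tested.

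The receptor was not called. PLAUR (locus chromosome 19, 44150247 to 44174498, hg19), a glycolipid-anchored protein of the LY6/uPAR family, was at 195 FPKM in shLuciferase against 217 FPKM in shETS1. Its log2 fold change was 0.16, for which the authors' deposited table lists q = 1.00. Of 721 tested rows at a like level, 588 had a lower fold change and 4 were called, none of these at less than 1.83-fold. The PLAU level was 2.64 times that of PLAUR in the control and 3.93 times in shETS1, a difference that was not tested.

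**Figure D2:**
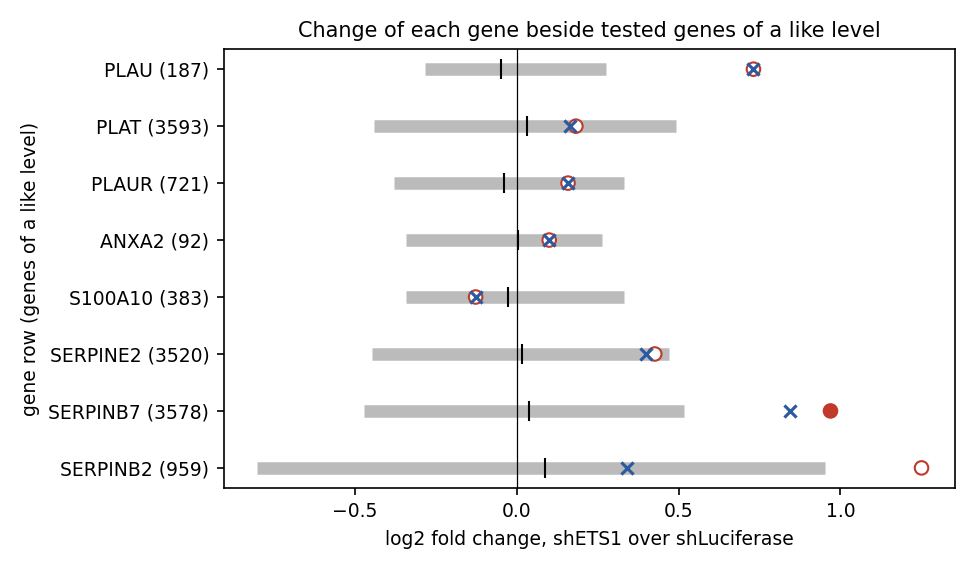
Horizontal axis, deposited log2 fold change of shETS1 over shLuciferase for each gene row (circles, filled where called at a q-value of 0.05) and the log2 ratio after addition of 1 FPKM to each level (blue crosses). Grey bars run from the 5th to the 95th percentile of the other tested rows whose mean level lay within 2-fold, their number is in parentheses, and black ticks are their medians; the bars describe the table and are not error bars. PLAU at 0.73 and SERPINB7 at 0.97 lie to the right of their bars, and SERPINB2 does so as deposited at 1.25 but not with 1 FPKM added, at 0.34.

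Sequences around the transcription starts are shown for PLAU, its receptor and the serpins SERPINB7 and SERPINB2, because ETS factors bind a GGAA core and the genes at p-values under 0.05 are PLAU and these serpins. Each line gives the 250 bases before a start in the RefSeq promoter table (build GRCh38.p14), 5′ to 3′ on the gene's strand. Capitals mark matches to GGAAG on either strand (it reads CTTCC where it lies on the opposite one) and to the AP-1 motif TGANTCA. PLAU lies at chr10:73910882-73911131 on the plus strand (the second of its 2 listed starts), PLAUR at chr19:43670170-43670419 on the minus strand, SERPINB7 at chr18:63775168-63775417 on the plus strand (the second of 3 starts) and SERPINB2 at chr18:63887455-63887704 on the plus strand.
PLAU: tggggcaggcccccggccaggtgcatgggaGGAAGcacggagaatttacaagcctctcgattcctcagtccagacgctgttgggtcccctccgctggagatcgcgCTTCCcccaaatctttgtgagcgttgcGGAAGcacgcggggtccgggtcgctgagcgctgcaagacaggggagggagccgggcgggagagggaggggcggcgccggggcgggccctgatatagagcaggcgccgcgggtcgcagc
PLAUR: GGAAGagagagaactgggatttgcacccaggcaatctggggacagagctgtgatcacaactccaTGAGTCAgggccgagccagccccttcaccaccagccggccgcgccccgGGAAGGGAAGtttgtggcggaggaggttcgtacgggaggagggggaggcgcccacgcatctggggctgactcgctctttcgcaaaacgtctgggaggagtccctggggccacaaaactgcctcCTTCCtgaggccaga
SERPINB7: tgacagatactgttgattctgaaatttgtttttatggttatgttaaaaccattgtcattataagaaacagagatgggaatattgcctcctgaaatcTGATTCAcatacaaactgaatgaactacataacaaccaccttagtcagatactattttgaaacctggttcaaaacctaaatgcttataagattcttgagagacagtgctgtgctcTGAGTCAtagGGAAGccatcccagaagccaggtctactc
SERPINB2: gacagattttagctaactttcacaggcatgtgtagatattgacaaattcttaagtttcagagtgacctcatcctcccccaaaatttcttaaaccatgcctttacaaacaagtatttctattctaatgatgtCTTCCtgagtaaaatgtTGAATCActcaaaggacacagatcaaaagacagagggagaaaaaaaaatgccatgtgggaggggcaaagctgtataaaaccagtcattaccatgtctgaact

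The windows were searched on both strands, and the 7 genes looked up here have 11 such windows. PLAT was not looked up, so the counts below do not cover it. The longer ETS motif CNGGAAGT, which contains the shorter one, was found in 0 of the 11 windows, where 7.77% of all 35116 windows of the same length hold it. GGAAG was found in 7 of the 11 windows, a share that sets nothing apart, since 65.1% of all windows hold it. Of the 2 PLAU windows, the one shown has it at 3 places and the one at the first start at 0, and the PLAUR window has it at 4. TGANTCA was found in 5 of the 11 windows, against 6.57% of all windows: at 1 place in PLAUR, SERPINB2 and ANXA2, and at 2 places in each of 2 SERPINB7 windows. Windows of 1 gene are not independent, and these genes were picked with results known. The ANXA2 window is on chromosome 15, while the deposited locus of the ANXA2 row is on chromosome 9. For PLAU and SERPINB7, the window shown is the one with the most marked places. A match describes letters only, and the well-known ETS and AP-1 enhancer of PLAU is described further upstream than these windows reach. The data hold no measurement of binding.

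Of the 3 serpins, SERPINB7 was called. This clade B serpin, also called megsin, rose from 4.83 FPKM in shLuciferase to 9.46 FPKM in shETS1, 1.96-fold. Its log2 fold change was 0.97, and the authors' deposited table lists p = 0.0004 and q = 0.0493. That is the largest q-value among the called genes, shared by 3 of them. Adjusted over the 10676 tested rows with a mean of 1 FPKM or more, the q-value was 0.0502 and SERPINB7 no longer passed. Of 3578 tested rows at a like level, 3558 had a lower fold change and 24 were called.

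SERPINB2, known as plasminogen activator inhibitor type 2, was barely expressed. It was at 0.239 FPKM in shLuciferase against 0.568 FPKM in shETS1, the largest ratio of the 8 genes at 2.38-fold and the lowest level. For the log2 fold change of 1.25 the authors' deposited table lists q = 0.266, and the log2 ratio was 0.34 after 1 FPKM was added to each level. The smallest change called among 959 rows at a like level was 2.49-fold. Its deposited locus is shared with SERPINB10, which was listed at 0 in both groups.

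SERPINE2, also called protease nexin 1, inhibits thrombin, urokinase and related proteases. SERPINE2 (locus chromosome 2, 224839765 to 224904036, hg19) was at 12.7 FPKM in shLuciferase against 17.0 FPKM in shETS1, a log2 fold change of 0.43. The authors' deposited table lists p = 0.0826 and q = 0.845 for it. On the FPKM scale it stood 2.62 times above SERPINB7 in the control and 1.80 times above it in shETS1.

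SERPINB7 and SERPINB2 lie in the same serpin cluster of chromosome 18, where the table has 10 clade B genes between 61144144 and 61656608 (hg19). Of these, 3 were tested. The other tested gene, SERPINB8, was at 6.90 FPKM in shLuciferase against 7.10 FPKM in shETS1, with a log2 fold change of 0.04. Its deposited locus follows that of SERPINB2 among these rows and is shared with HMSD, so its reads are uncertain. SERPINB5 was at 0.194 and 0.172 FPKM, too low to be tested, and 5 of the 10 were listed at 0 in both groups. The loci of SERPINB7 and SERPINB2 are 82.3 kb apart, and for SERPINB8 the authors' deposited table lists q = 1.00.

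**Figure D3:**
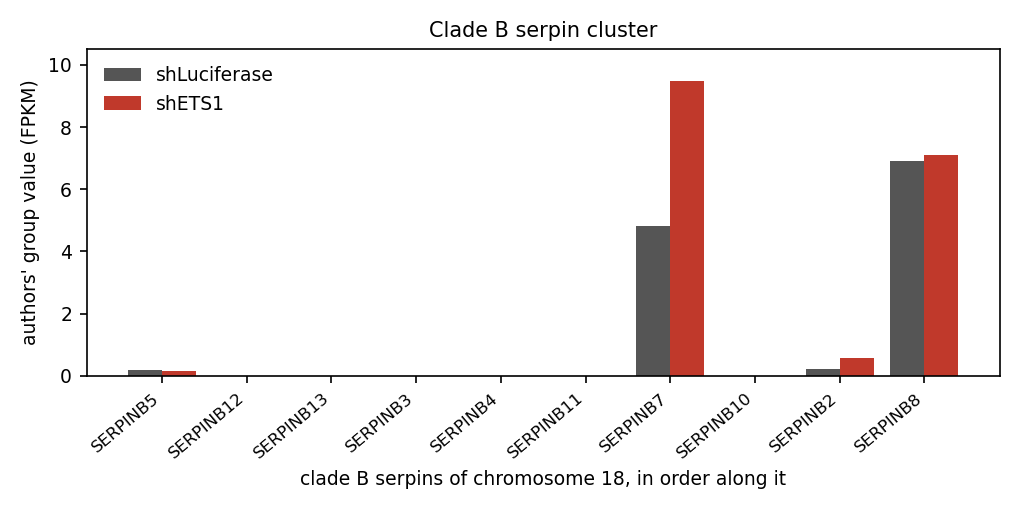
Authors' group values in FPKM (vertical axis, from 0) of the 10 clade B serpin rows of chromosome 18 (horizontal axis), with shLuciferase in grey and shETS1 in red. Rows are sorted by the start of their deposited locus, and no errors are given. SERPINB3 and SERPINB4 share a locus, as do SERPINB10 and SERPINB2, so the order within each pair is not shown. SERPINB7 goes from 4.83 to 9.46 FPKM, SERPINB8 is at 6.90 and 7.10 FPKM, SERPINB2 is at 0.239 and 0.568 FPKM, and 5 genes are listed at 0 in both groups.

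The rows named for the 2 proteins of the plasminogen-binding complex were abundant and not called. S100A10 (locus chromosome 1, 151955386 to 151966714, hg19) was at 384 FPKM in shLuciferase against 352 FPKM in shETS1, with a log2 fold change of -0.13. The ANXA2 row was at 1844 FPKM in shLuciferase against 1976 FPKM in shETS1, with a log2 fold change of 0.10. For both, the authors' deposited table lists q = 1.00. As deposited, the ANXA2 row stood 4.80 times above S100A10 in the control and 5.62 times above it in shETS1, with the length used to scale that row unknown.

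The ANXA2 row cannot be read as the annexin A2 gene alone. Its deposited locus is on chromosome 9, from 33624223 to 33625532 (hg19), a stretch of 1310 bases. RefSeq (GRCh38.p14) places ANXA2 on chromosome 15, over 50836 bases, and its transcribed pseudogene ANXA2P2 on chromosome 9, over 1310 bases. Among 16996 rows whose symbol RefSeq lists, the Y chromosome left out, 10 had a deposited chromosome other than RefSeq's, and ANXA2 was one of them. In the transcript sequences of GENCODE 29, the copy and the coding part of ANXA2 were identical at 1001 of 1017 aligned positions (98.4%). Of the 971 stretches of 50 bases in the copy, 575 (59.2%) also occur unchanged in an ANXA2 transcript. Reads from those stretches fit both places, so the share of the row's level that comes from either was not measured, and neither was the transcript length used to scale it. The stretch of 60 aligned bases with the most differences shows how alike they are. It covers coding bases 161 to 220 of ANXA2, counted from the start codon, and the 5 capitals mark the bases that differ.
ANXA2: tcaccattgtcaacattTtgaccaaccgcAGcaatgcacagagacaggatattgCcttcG
ANXA2P2: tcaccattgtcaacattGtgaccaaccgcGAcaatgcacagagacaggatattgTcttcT

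The fold changes were also set beside the base composition of the transcripts, since the 2 were related over the table (Spearman rho of -0.46 across 9735 expressed genes, which are not independent of each other). PLAU has a transcript GC content of 52.6%, above the median of 49.95%, and PLAUR one of 57.3%. With a trend on GC content removed, the log2 fold change of PLAU was 0.78 and that of PLAUR 0.27. SERPINB7 has the lowest GC content of the 8, 40.5%, and its log2 fold change was 0.81 after removal. That of S100A10, at 56.2% GC, was -0.03. No gene of the 7 with a mean of at least 1 FPKM changed the sign of its value.

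Around these genes, the regulators and clearance receptors of plasminogen activators had no called member among 19 tested, and 4 were higher and 1 lower at an unadjusted p under 0.05, where 6.94% of all tested rows lay under that p, 3.90% higher and 3.04% lower. The median log2 fold change of the 17 with a mean of 1 FPKM or more was 0.13, against 0.02 for all 10676 such rows. Plasminogen itself, PLG, was listed at 0 in both groups, and the plasmin inhibitor SERPINF2 was at 0.118 and 0.0924 FPKM, too low to be tested. ENO1, a glycolytic enzyme that can bind plasminogen at the cell surface, was at 2117 FPKM in shLuciferase against 2058 FPKM in shETS1. ITGB1, the integrin beta 1 chain, was at 100.4 and 153 FPKM (q = 0.424 in the authors' deposited table), and ITGA3, an integrin alpha chain that can associate with PLAUR, was at 173 and 138 FPKM.

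Among the other serpins, 8 of 32 rows were tested and none was called, with 2 higher and 1 lower at an unadjusted p under 0.05 (3.90% and 3.04% of all tested rows). This list overlaps with that of regulators and clearance receptors, also among genes under that p, so the counts are not separate. SERPINH1, a collagen chaperone without inhibitor activity, was at 65.6 FPKM in shLuciferase against 41.6 FPKM in shETS1 (q = 0.266 in the authors' deposited table). SERPINB6 was at 88.6 and 88.7 FPKM and SERPINB1, an inhibitor of neutrophil proteases, at 14.3 and 14.1 FPKM. The median log2 fold change of the 6 serpins with a mean of 1 FPKM or more was 0.02.

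A plasmin inhibitor of another family was called. TFPI2, a Kunitz-type inhibitor that acts on plasmin and other proteases of the matrix, rose from 58.2 FPKM in shLuciferase to 113 FPKM in shETS1, 1.95-fold (q = 0.0242 in the authors' deposited table). It was the 1 called gene of 10 tested on the list of coagulation genes of the cell surface, where 0.812% of all tested rows were called, and also the 1 gene of the 10 at an unadjusted p under 0.05. On that list, GAS6 was at 90.3 and 122 FPKM, VKORC1, an enzyme of vitamin K recycling, at 97.2 and 86.5 FPKM, and PROCR, the protein C receptor, at 38.0 and 28.7 FPKM. The deposited loci of VKORC1 and PROCR are shared with other genes, so their reads are uncertain. The median log2 fold change of the 10 genes was 0.06.

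Of 21 tested genes for plasmin substrates and factors that plasmin can release or activate, 3 were called higher and 0 called lower at a q-value of 0.05, where 0.544% and 0.268% of all tested rows were. At an unadjusted p under 0.05, 6 of the 21 were higher and 1 lower (3.90% and 3.04% of all tested rows). The lower one is TNC, the matrix protein tenascin C, at 26.7 FPKM in shLuciferase against 18.2 FPKM in shETS1 (q = 0.588 in the authors' deposited table). Those called are the collagenase MMP1 (0.816 to 2.01 FPKM), the gelatinase MMP9 (0.517 to 1.73 FPKM) and VEGFC (4.35 to 8.17 FPKM). Control levels of MMP1 and MMP9 were under 1 FPKM, where a small difference makes a large ratio. The more abundant genes of the list were not called: the matrix protein FN1 was at 415 and 632 FPKM, IGFBP3 at 377 and 395 FPKM, the laminin chain LAMB3 at 277 and 304 FPKM, and MMP14, a membrane-bound metalloproteinase, at 171 and 192 FPKM. Of the 17 with a mean of 1 FPKM or more, 12 had a log2 fold change above 0 and 5 below, and the median was 0.16.

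Among relatives of the surface proteins, of 18 tested annexin and S100 rows, none was called; S100A16 was at 1405 and 1317 FPKM, S100A11 at 1384 and 1078 FPKM, S100A6 at 1269 and 1156 FPKM and S100A13, whose locus is shared with CHTOP and S100A1, at 836 and 849 FPKM. Their median log2 fold change, over 17 rows, was -0.05. Of 9 tested LY6/uPAR domain genes none was called either, with a median of -0.01 over 8. LY6E was at 243 and 215 FPKM, CD59, an inhibitor of the complement attack complex, at 67.3 and 87.9 FPKM, LY6K at 62.1 and 58.9 FPKM and LY6G5C, whose deposited locus is an alternative haplotype, at 7.07 and 6.40 FPKM.

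**Figure D4:**
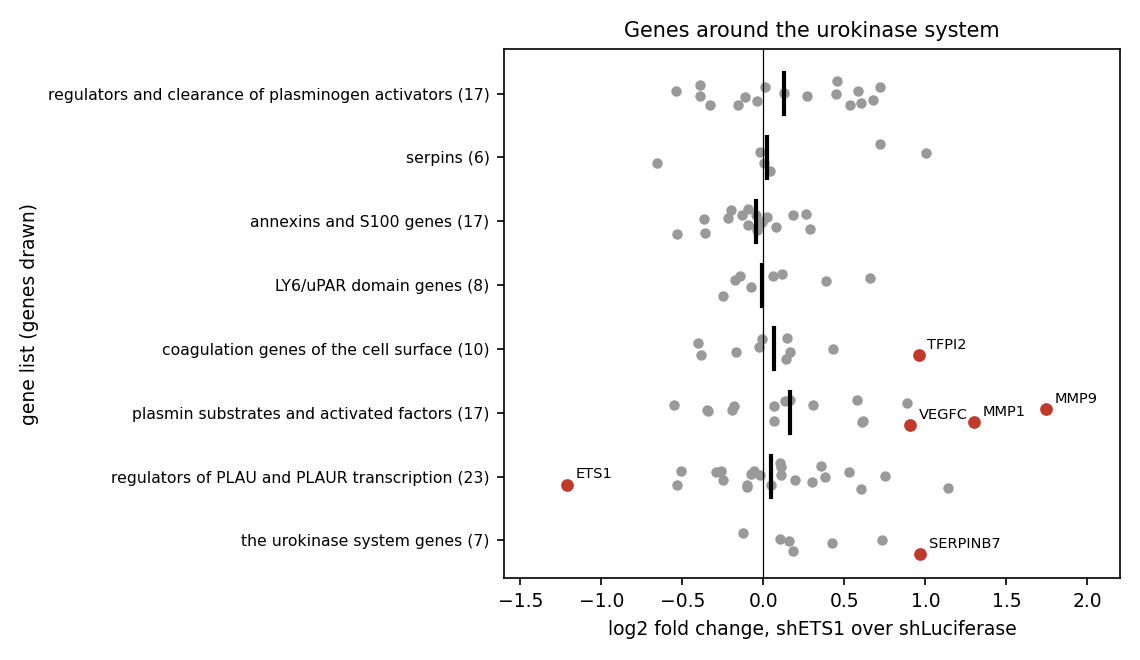
Horizontal axis, deposited log2 fold change of shETS1 over shLuciferase for tested genes with a mean of at least 1 FPKM on each list (vertical axis, number of genes in parentheses); points are spread vertically only to separate them. Red points with names are the called genes, grey points the others, and black bars the list medians, which run from -0.05 for annexins and S100 genes to 0.16 for plasmin substrates; the 7 urokinase system genes are drawn without a median bar.

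Of 24 transcription and RNA-binding factors described as acting on PLAU or PLAUR, all were tested and ETS1, the gene the hairpin targets, was the 1 called, lower, where 0.268% of all tested rows were called lower. The AP-1 subunit FOSL1 was at 703 FPKM in shLuciferase against 756 FPKM in shETS1, the AP-1 subunit JUN at 152 and 127 FPKM, HMGA1, a chromatin protein, at 2368 and 2444 FPKM and HNRNPC, an RNA-binding protein, at 326 and 351 FPKM. The median log2 fold change of the 23 with a mean of 1 FPKM or more was 0.05.

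The labelled cell type was checked against markers. Of 9 ovarian carcinoma markers, 8 were at or above 1 FPKM in both groups, and MUC16 was at 0.000625 FPKM in the control and listed at 0 in shETS1. The 9 summed to 5234 FPKM in shLuciferase against 3784 FPKM in shETS1, nearly all of it keratins: KRT18 was at 2044 and 1498 FPKM, KRT8 at 1913 and 1288 FPKM and KRT7 at 1187 and 910 FPKM. PAX8 was at 79.7 and 76.8 FPKM and SOX17 at 1.15 and 2.38 FPKM, and none of the 9 was called. The leukocyte genes PTPRC and TYROBP were listed at 0 in both groups, and the 4 leukocyte markers summed to 49.2 and 47.6 FPKM, nearly all of it CD68. Of 6 endothelial markers found, 4 were under 1 FPKM in both groups, and the sum was 183 and 127 FPKM with TIE1 as the main part; CDH5 was called lower, at 17.6 and 5.00 FPKM. The 5 fibroblast markers summed to 5.90 and 10.1 FPKM, with COL3A1 and DCN listed at 0 in both groups and COL1A1 called higher. The 4 mesothelial markers summed to 23.0 and 30.7 FPKM, with MSLN as the main part at 17.9 and 26.5 FPKM, and LRRN4 was called lower. The part of these differences in the values of the urokinase system was not tested.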

How the data were processed

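Polyadenylated RNA of HEYA8 cells was sequenced in 3 shLuciferase and 3 shETS1 samples. The submitters' processing notes name Cufflinks 2.1.1, TopHat2 2.0.7, SAMtools 0.1.18 and Bowtie2 2.0.6, with hg19 as genome build and without roles; annotation and library scaling are not stated there. Per the file headers, the authors deposited 1 FPKM value per gene and group. Beside it stand their log2 fold change, p-value and q-value, and a score (the test statistic) that was not needed, per the file headers. Depth is unknown. A limma test had been planned in case the file gave single samples, which it does not.

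A q-value of 0.05 or less counted as a call. Recomputed by Benjamini-Hochberg from the deposited p-values of the tested rows, the q-values differed by up to 5.16e-07. Locus starts were raised by 1 so that they count from 1. Members and the 7 wider lists were chosen with earlier results of these data known. Of each list, the 4 tested genes with the highest mean and every called gene were named; PLG, SERPINF2, SERPINB5, SERPINB8, SERPINB10, C10orf55 and the markers were picked with their values known. Not every gene named by these rules is reported here. The coagulation list also holds TF, transferrin, by symbol, and TF was not tested by the authors. Likewise the annexin and S100 list, built by symbol prefix, counts S100PBP, an S100P-binding protein. That row was tested, and its deposited locus is shared with YARS. GC content came from the GENCODE 29 transcript with the longest coding sequence, matched by symbol (91.2% of expressed rows), with a cubic trend. Symbols of 7 members were looked up in the RefSeq promoter table and all 7 were found, while PLAT was left out of the search. Python 3.11.15, pandas 2.3.3 and Biopython 1.88 were used, and the adjustment and the GC trend were tested on simulated data.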

Additional observations from a re-analysis of the deposited data

How the results depend on the processing

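Adjusted over the tested rows with a mean of at least 1 FPKM, 0 of the 8 genes were called, because the q-value of SERPINB7 went to 0.0502; at a q-value of up to 0.1 the count was 1, as before. At an unadjusted p under 0.05, which 6.94% of all tested rows met, the count was 3 of 8, all higher. At that p it was 5 of 19 (4 higher) for regulators and clearance of plasminogen activators. For other serpins, an overlapping list, the count was 3 of 8 (2 higher). It was 1 of 18 (lower) for annexins and S100 genes and 7 of 21 (6 higher) for plasmin substrates. Transcription regulators had 6 of 24 (4 higher), with ETS1, the gene the hairpin targets, among those lower. With the GC trend removed, the log2 fold changes kept their sign wherever a value could be computed (SERPINB2 has none, being under 1 FPKM on average). Signs say nothing for the other settings. Adding 0.1 or 1 FPKM to both levels cannot change a sign. The subtracted median of expressed rows (0.02) is smaller in size than each of the 8 log2 fold changes. No paired analysis was possible because the deposited table gives 1 combined value per group, and for the same reason no sample could be left out. Depth is unknown, so no detection limit is given for genes listed at 0.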

Other observations

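Another abundant row shares the oddity of the ANXA2 row. RPL9, a ribosomal protein gene picked with its values known, has a deposited locus on chromosome X, where RefSeq (GRCh38.p14) does not place it, and was at 146 FPKM in shLuciferase against 172 FPKM in shETS1.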
